A study of Mus musculus with 2 samples.

Results

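The miR-378 family is a group of short regulatory RNAs whose best known member, miR-378a, is cut from an intron of *Ppargc1b*, the gene for the metabolic coactivator PGC-1β. Its members were taken as every mature entry of the miRNA table whose name begins with mmu-miR-378 followed by a letter or a hyphen. This gave 5 of the 1080 mature entries, namely mmu-miR-378a-3p, mmu-miR-378a-5p, mmu-miR-378b, mmu-miR-378c and mmu-miR-378d. Small RNA was sequenced from the smooth muscle of the mouse jejunum, the middle part of the small intestine, at 15 days of age, with 1 library from *Dnmt1*-WT and 1 from *Dnmt1*-KO mice. *Dnmt1* encodes the DNA methyltransferase that copies methylation marks after replication. The comparison asked how the miRNAs of this muscle differ when the enzyme is deleted there.

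Both groups carried smMHC Cre-eGFP, a transgene that makes Cre recombinase and a green reporter from the *Myh11* promoter, which is active in smooth muscle cells. *Dnmt1*-KO mice carried it together with *Dnmt1* lox/lox, so that the deletion was limited to cells that had used this promoter, and other cells of the muscle wall kept the gene. The strain label is the same for both libraries. It names the transgene Tg(Myh11-cre,-EGFP)2Mik together with Dnmt1lox/lox, on a C57BL/6 background. The groups were taken from their titles and genotypes. A free-text field of the *Dnmt1*-WT library names the mutant genotype and was not followed, and since small RNA libraries hold no *Dnmt1* transcript the genotypes were not checked in these data. Several mice of both sexes are listed for each genotype in the methods, which leave unstated whether each library pools them. With 1 library per genotype there was no test and no estimate of the spread between animals. Each interval given here is a 95% interval for counting error only, and it treats reads as independent. The reads carry no molecular identifiers and cannot be taken as independent molecules, so the intervals may be too narrow even for that error.

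A miRNA guides a silencing complex to messenger RNAs, mainly by pairing of its seed, bases 2 to 8 from the 5′ end. The hairpin precursor is cut into a 5p and a 3p strand, and usually one of them is kept in larger amount. miR-378a is known from skeletal muscle, heart and brown fat. Its 3p strand has the carnitine acetyltransferase gene *Crat* among its reported targets, and its 5p strand has been tied to *Esrrg* and *Gabpa*, which encode regulators of mitochondrial genes. miR-378b, miR-378c and miR-378d are named for their likeness to miR-378a in sequence and come from other loci.

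The mature sequences of miR-378b, miR-378c and miR-378d are shown because their likeness decides how far reads can be told apart. RefSeq sequences on GRCm38.p6 were matched for 3 of the 5 members, with U for T and the seed in capitals:
miR-378c: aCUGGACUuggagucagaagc
miR-378d: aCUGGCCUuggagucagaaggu
miR-378b: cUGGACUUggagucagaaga
miR-378c has 21 bases and lies at chr14:46954905-46954925 on the minus strand. Counted from the 5′ end of miR-378c, miR-378d differs from it by A6C and C21G and carries 1 more base at its 3′ end, so that 19 of 21 aligned bases were the same. It has 22 bases and lies at chr10:126710355-126710376 on the minus strand. miR-378b has 20 bases and lies at chr11:88352839-88352858 on the plus strand. It lacks the first base of miR-378c and differs from it by C21A, with 19 of 20 aligned bases the same. All 3 share an unbroken run of 14 bases, CUUGGAGUCAGAAG, which was in 0 of the 1676 other mature mouse miRNAs of the same RefSeq table. miR-378a was not among the sequences searched. Their seeds differ from each other, through A6C in miR-378d and through the shifted start in miR-378b, and each of the 3 seeds was found in 0 other entries of the 1679 searched, among which miR-378a again did not figure.

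The hairpins show from which side each mature strand comes, with the mature bases in capitals:
Mir378b: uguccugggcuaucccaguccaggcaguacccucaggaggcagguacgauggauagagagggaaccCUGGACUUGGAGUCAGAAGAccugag
Mir378c: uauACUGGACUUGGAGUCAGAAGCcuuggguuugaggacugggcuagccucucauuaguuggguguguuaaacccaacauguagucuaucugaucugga
Mir378d: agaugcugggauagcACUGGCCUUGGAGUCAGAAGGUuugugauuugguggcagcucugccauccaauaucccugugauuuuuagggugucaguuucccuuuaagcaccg
The mature strand takes bases 67 to 86 of 92 in *Mir378b*, on the 3p side. It takes bases 4 to 24 of 99 in *Mir378c* and 16 to 37 of 110 in *Mir378d*, on the 5p side of both. The near-identical strands thus do not come from the same side of their hairpins. On GRCm38 with GENCODE M21, *Mir378b* (chromosome 11, 88352773 to 88352864) lies in an intron of *Msi2*, an RNA-binding protein gene, on the opposite strand. *Mir378c* (chromosome 14, 46954830 to 46954928) lies in an intron of *Samd4*, on the opposite strand. *Mir378d* (chromosome 10, 126710282 to 126710391) overlaps no other annotated gene.

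All 5 members had a value above 0 in both libraries, and all 5 passed a mean of 10 over the libraries. Values are on the deposited scale of read counts multiplied by a factor close to 1 for each library. mmu-miR-378a-3p, the main strand, was at 72604.9 in *Dnmt1*-WT and at 39265.6 in *Dnmt1*-KO. mmu-miR-378c was at 4473.2 and 3656.6. On this scale both were lower in the KO library, with a change of -45.9% for the first and -18.3% for the second. The total of the KO library was lower too, 4754677 against 5741906. As a share of its library, miR-378a-3p went from 1.26% to 0.826%, and miR-378c from 0.0779% to 0.0769%.

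mmu-miR-378d, which differs from miR-378c inside the seed, was at 1445.6 in *Dnmt1*-WT and 694.2 in *Dnmt1*-KO. mmu-miR-378a-5p, the other strand of the miR-378a hairpin, was at 1176.3 and 1029.1. mmu-miR-378b was the scarcest member, at 37.6 and 16.8. In *Dnmt1*-WT the order of read numbers was miR-378a-3p, miR-378c, miR-378d, miR-378a-5p and miR-378b. In *Dnmt1*-KO miR-378d and miR-378a-5p changed places, while the other three kept theirs.

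**Figure D1:**
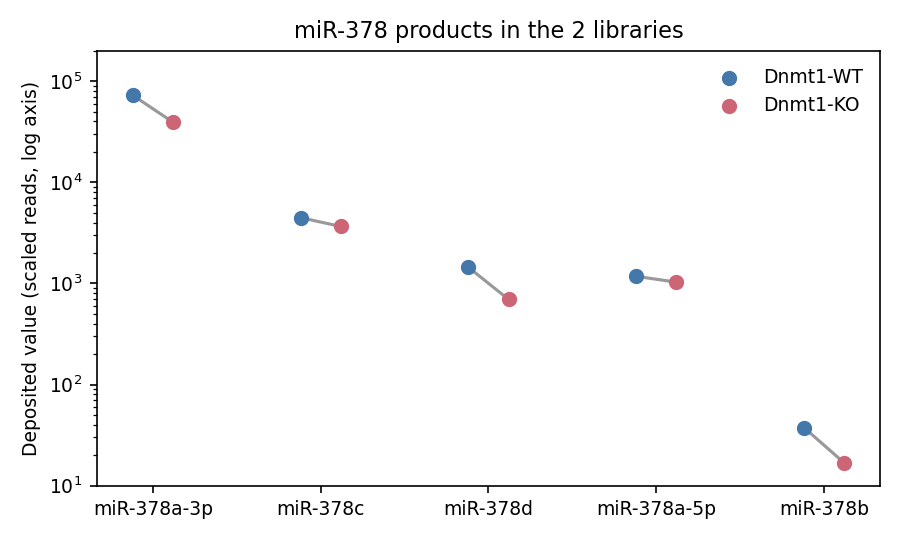
Deposited value of each miR-378 member in the Dnmt1-WT and Dnmt1-KO library (scaled reads, log axis, 1 point per library, joined by a line). All 5 lines slope down from WT to KO, from 72604.9 to 39265.6 for miR-378a-3p, and miR-378d (1445.6 to 694.2) crosses below miR-378a-5p (1176.3 to 1029.1).

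miR-378a-3p was an abundant miRNA of this tissue. It ranked 16 of 1080 mature entries in *Dnmt1*-WT and 22 in *Dnmt1*-KO. Its share of the library was 1.26% in WT (Wilson interval 1.255% to 1.274%) and 0.826% in KO (0.818% to 0.834%). The other members ranked far lower. miR-378c went from rank 66 to 75, miR-378d from 118 to 154, and miR-378a-5p from 132 to 139. miR-378b was at rank 393 in WT and lower in KO.

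The KO/WT ratio of miR-378a-3p was 0.541 (exact Clopper-Pearson interval 0.534 to 0.547), a log2 ratio of -0.89. miR-378d had a lower ratio, 0.480 (0.438 to 0.526). miR-378b was at 0.447, with an interval of 0.241 to 0.832 from its few reads. The ratios of miR-378c, 0.817 (0.782 to 0.854), and miR-378a-5p, 0.875 (0.804 to 0.952), were closer to 1. By these values the members formed a lower set of 3 and a higher pair, although the interval of miR-378b overlapped that of each of the pair, and strands of the same hairpin, miR-378a-3p and miR-378a-5p, were on different sides.

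Of the 5 members, 2 were at least 2-fold lower in the KO library, miR-378d and miR-378b. Among all 543 mature and hairpin entries with a mean of at least 10, 54 were at least 2-fold lower, which is 9.94%, and 62 were at least 2-fold higher, which is 11.4%. All 5 members had a ratio below 1, as did 260 of the 543 entries, or 47.9%. The members are not independent of each other, since some share a precursor or divided reads, so these counts describe the family and do not test it.

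The size of every ratio depended on how the libraries were set against each other. The deposited totals were 5741906 in *Dnmt1*-WT and 4754677 in *Dnmt1*-KO, and the deposited scale does not make them equal. Equal totals raise each ratio by 0.27 on the log2 scale. miR-378a-3p was then at 0.653, miR-378d at 0.580, miR-378b at 0.540, miR-378c at 0.987 and miR-378a-5p at 1.06. On that scale 0 of the 5 members were at least 2-fold lower, next to 29 of the 543 entries, or 5.34%. miR-378c lay next to equality and the direction of miR-378a-5p turned, while 34.1% of the 543 entries had a ratio below 1. The ratios of miR-378a-3p, miR-378d and miR-378b remained below 1 under all 4 scalings.

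**Figure D2:**
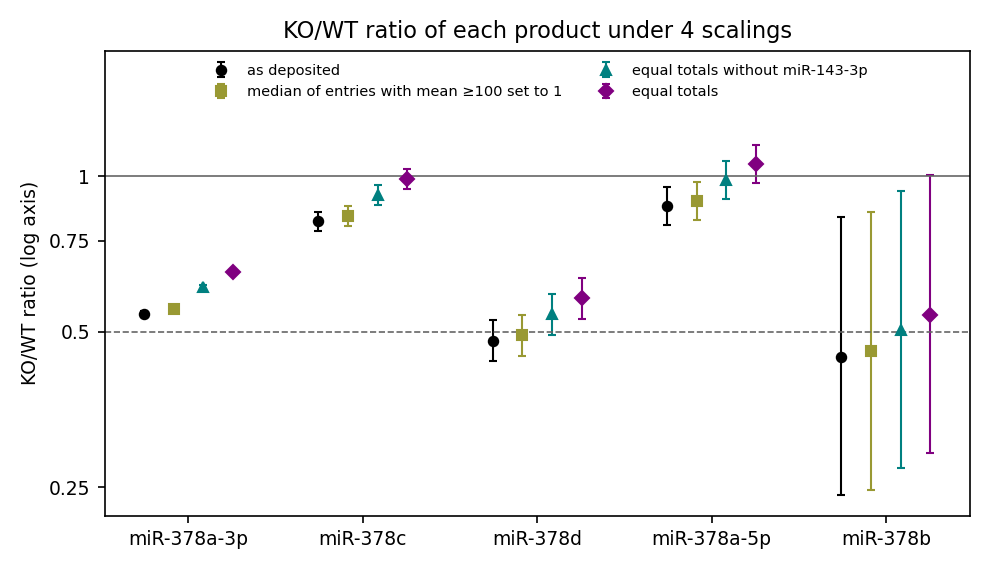
KO/WT ratio of each miR-378 member (log axis) as deposited and under 3 other scalings, with 95% intervals for counting error; the solid line marks 1 and the dashed line a 2-fold lower value. miR-378a-3p moves from 0.541 as deposited to 0.653 with equal totals, and miR-378a-5p from 0.875 to 1.06.

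Abundant miRNAs had lower ratios in general. The median ratio was 1.04 over the 543 entries above. It was 0.913 over 136 entries whose mean reached 1000, and 0.831 over 46 entries whose mean reached 10000. Relative to the median of the 136 entries, miR-378a-3p was at 0.593, miR-378d at 0.526, miR-378c at 0.896 and miR-378a-5p at 0.958. Of these 136 entries, 13 had a lower ratio than miR-378a-3p and 8 a lower ratio than miR-378d. For miR-378c the number was 49, and for miR-378a-5p it was 57. miR-378a-3p and miR-378d therefore lay toward the low end of miRNAs of their abundance, and miR-378c and miR-378a-5p in the middle. Among the 46 most abundant entries, 6 were below miR-378a-3p. The ratio of miR-378b was above those of 33 of the 543 entries.

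**Figure D3:**
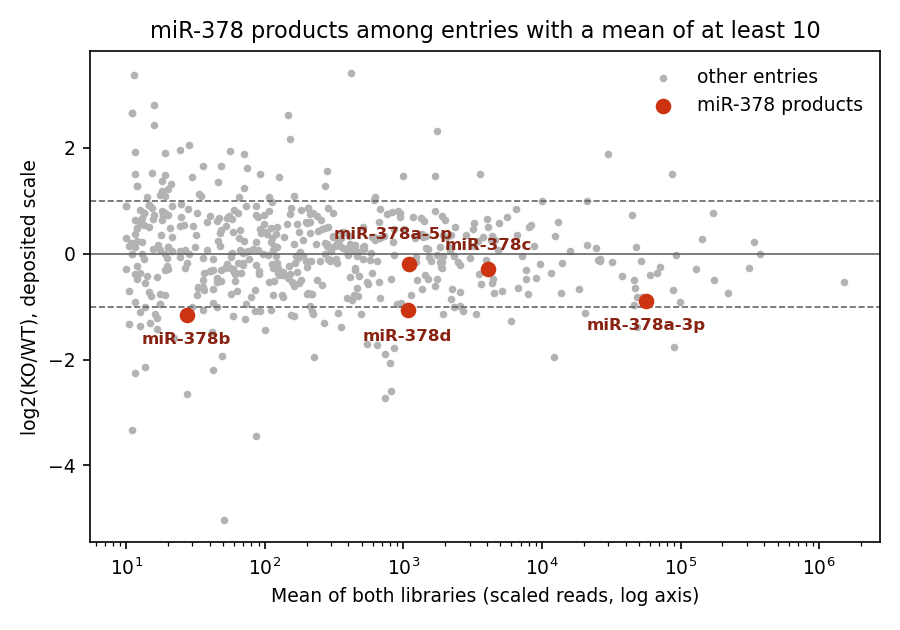
log2 of the KO/WT ratio against the mean of both libraries (scaled reads, log axis) for 543 entries with a mean of at least 10, with the miR-378 members in red and dashed lines at a 2-fold difference. miR-378b and miR-378d lie just under the lower dashed line, at -1.16 and -1.06, and miR-378a-3p just above it at -0.89.

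The family as a whole was set by miR-378a-3p. Summed over the 5 members, the values were 79737.6 in *Dnmt1*-WT and 44662.3 in *Dnmt1*-KO, a ratio of 0.560 (0.554 to 0.567). With equal totals the summed ratio was 0.676. The family made up 1.39% of the WT library and 0.939% of the KO library. As deposited, miR-378a-3p had the 9th largest drop in value on the table, 33339.3 scaled reads.

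Shares within the family do not depend on the scaling, because the factor of a library cancels. miR-378a-3p made up 91.1% of the family in *Dnmt1*-WT (exact interval 90.9% to 91.3%) and 87.9% in *Dnmt1*-KO (87.6% to 88.2%). The share of miR-378c was 5.61% in WT (5.45% to 5.77%) and 8.19% in KO (7.94% to 8.45%). That of miR-378a-5p was 1.48% (1.39% to 1.56%) and 2.30% (2.17% to 2.45%). Both minor products thus had larger shares in the KO library, with intervals that did not overlap. miR-378d moved the other way, from 1.81% (1.72% to 1.91%) to 1.55% (1.44% to 1.67%). miR-378b was at 0.0472% and 0.0376%, with overlapping intervals.

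**Figure D4:**
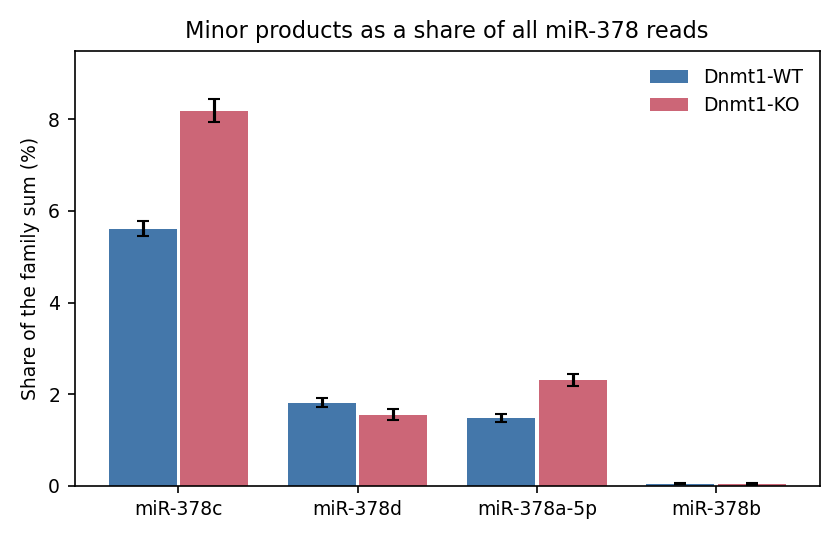
Share of the summed miR-378 value (%) taken by the 4 minor members in each library, with exact 95% intervals for counting error; miR-378a-3p holds the rest. The bar of miR-378c goes from 5.61% in Dnmt1-WT to 8.19% in Dnmt1-KO and that of miR-378a-5p from 1.48% to 2.30%, while that of miR-378d goes from 1.81% to 1.55%.

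Ratios between members gave the same split without any scaling. The ratio of miR-378c to miR-378a-3p was 1.51 times as large in the KO library as in the WT library (log-normal interval 1.44 to 1.58), going from 6.16% to 9.31%. miR-378c against miR-378d was 1.70 times as large (1.54 to 1.88), although these strands share 19 of 21 aligned bases. miR-378c against miR-378a-5p was at 0.934, with an interval of 0.850 to 1.03 that includes 1. miR-378d against miR-378a-3p was at 0.888 (0.810 to 0.973), so that the KO/WT ratio of miR-378d was slightly below that of miR-378a-3p. For miR-378b against miR-378a-3p the value was 0.826, and its interval of 0.465 to 1.47 covers differences in either direction. Against miR-378c it was at 0.547 (0.307 to 0.973) and against miR-378a-5p at 0.511 (0.286 to 0.913), both intervals lying below 1. miR-378d against miR-378a-5p, the pair that changed places, was at 0.549 (0.485 to 0.621).

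The strands of the miR-378a hairpin differed from each other in both level and ratio. The 3p strand had 61.7 times the reads of the 5p strand in *Dnmt1*-WT and 38.2 times in *Dnmt1*-KO. As a percentage of the 3p strand, miR-378a-5p was at 1.62% in WT and 2.62% in KO, 1.62 times as large (1.49 to 1.76). On the log2 scale, the KO/WT ratio of the 3p strand was 0.69 below that of the 5p strand. Such a gap was not rare on the table. Among the 61 other hairpins with a mean of at least 100 on both arms, 22 had arms farther apart, and their median gap was 0.45. The imbalance of the strands in WT was larger in 13 of the 61 others.

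**Figure D5:**
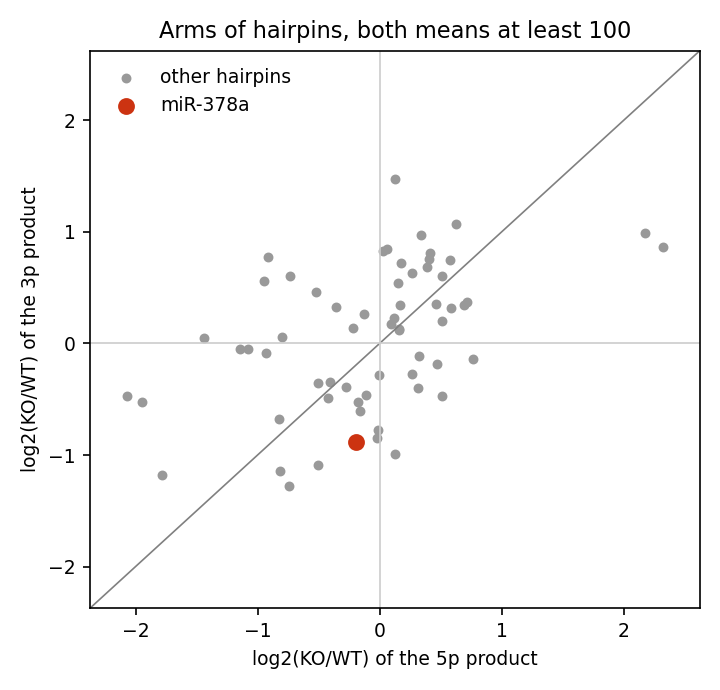
log2 of the KO/WT ratio of the 3p strand against that of the 5p strand, for 62 hairpins with a mean of at least 100 on both arms; on the diagonal both strands have the same ratio. miR-378a, in red, lies 0.69 below the diagonal, with -0.89 for the 3p and -0.19 for the 5p strand.

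Some members carried divided reads. Most low values on the table were whole multiples of 1 step per library, 1.0029 in WT and 0.9972 in KO, within 0.06 of a read, so reads can be recovered from them. miR-378a-5p came out whole, at 1172.9 reads in WT and 1032.0 in KO, within the error of the step. miR-378d came out fractional in both libraries, at 1441.5 and 696.14 reads, and so did miR-378b, at 37.49 and 16.85. miR-378c was fractional in WT, at 4460.5 reads, while in KO, at 3666.8, the error of the step was too wide to tell. miR-378a-3p was too large to tell in either library. How reads that match several miRNAs were divided is not given in the sources used here. The levels and ratios of miR-378b, miR-378c and miR-378d are therefore uncertain beyond their counting intervals. The summed ratio was 0.557 when miR-378a-3p and miR-378c were taken as 1 product and 0.555 without miR-378a-5p, next to 0.560 for all members. The 3 members outside the miR-378a hairpin summed to 5956.4 in WT and 4367.6 in KO, a ratio of 0.733 (0.705 to 0.763), against 0.546 (0.540 to 0.553) for both strands of miR-378a.

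*Mir378a* lies on chromosome 18 of GRCm38, at 61397835 to 61397900 on the minus strand, in an intron of *Ppargc1b* (61298136 to 61400431) and on the same strand. It also overlaps an exon of *Gm25301*, annotated on the opposite strand. *Ppargc1b* is a host gene whose transcript small RNA libraries do not measure. Within 500 kb, the annotation also places the miR-143 and miR-145a hairpins, known markers of smooth muscle, at 251.3 and 249.9 kb. miR-143-3p had a ratio of 0.694 and miR-143-5p one of 0.259, while miR-145a-5p was at 0.598 and miR-145a-3p at 0.413. All 4 were lower in the KO library, as were 80 of the 136 entries whose mean reached 1000, or 58.8%. The ratio of miR-378a-3p lay between those of these 4 strands. Of the other miRNA genes in the window, *Mir7220* and *Mir6983* had 3 scaled reads or fewer in each library, and *Mir6982* and *Gm25301* had no value on the table.

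miRNAs of like abundance differed widely in ratio. The entries next above miR-378a-3p in *Dnmt1*-WT were miR-22-3p, at 77462.1 in WT and 64815.1 in KO, and let-7b-5p, at 75838.7 and 59075.3. Their ratios were 0.837 and 0.779, both above that of miR-378a-3p. Next below were miR-30c-5p, at 69647.4 and 26544.4 (ratio 0.381), and miR-30d-5p, at 68468.9 and 51609.6 (ratio 0.754). miR-378a-3p was thus lower in KO than 3 of these 4 neighbours, and miR-30c-5p was lower still.

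By the distance between log2 ratios over the 2 libraries, the 5 mature miRNAs with a mean of at least 1000 most like miR-378a-3p, out of 132 candidates outside the family, were miR-125a-5p, miR-328-3p, miR-30e-5p, miR-30a-5p and miR-125b-5p. miR-125a-5p was at 129304.8 in WT and 68520.6 in KO (ratio 0.530) and miR-328-3p at 2850.1 and 1578.5 (0.554). The miR-30 members were at 62358.6 and 35182.4 (miR-30e-5p, 0.564) and at 66567 and 37773 (miR-30a-5p, 0.567). miR-125b-5p was at 61018.6 and 31311.2 (0.513). These 5 lay within 0.08 of miR-378a-3p on the log2 scale. With 1 ratio per miRNA, likeness means only a similar KO/WT ratio.

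Other miRNAs tied to metabolism did not share 1 direction. A list of 13 miRNAs was drawn up from their known hosts or targets in lipid, glucose or mitochondrial metabolism, brown fat or slow muscle. On the table were 12 of them, miR-696 being the exception, with 23 mature entries, of which 14 had a mean of at least 10. Of these 14, 2 were at least 2-fold lower, 2 at least 2-fold higher and 10 within 2-fold, and 9 had a ratio below 1, next to 9.94%, 11.4% and 47.9% of all 543 entries that were lower, higher and below 1. With equal totals 1 entry was at least 2-fold lower and 2 at least 2-fold higher, next to 5.34% and 19.5% of all entries. The median ratio of the 14 was 0.796, beside 1.04 for all 543 entries. Their sum was 19844.2 in WT and 15766.7 in KO with entries of lower mean included, a ratio of 0.795, or 0.959 with equal totals.

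The most abundant of the list was miR-103-3p, which lies in a pantothenate kinase gene, at 12930.1 in WT and 10079.1 in KO (ratio 0.780). Its close relative miR-107-3p was at 1437.6 and 839 (ratio 0.584, interval 0.535 to 0.635). The entries at least 2-fold lower were miR-208b-3p, from an intron of the slow myosin gene *Myh7*, at 992.8 and 301.2 (0.303, interval 0.266 to 0.345), and miR-455-5p, at 294.8 and 139.6 (0.474, interval 0.384 to 0.581). miR-455-3p, the opposite strand of that brown fat miRNA, was at 1256.6 and 1211.6 (0.964, interval 0.890 to 1.04). The strands of miR-455 thus differed, as those of miR-378a did, with the scarcer strand being the lower one here.

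The brown fat miRNAs miR-365-3p and miR-193b-3p went in opposite directions, at 1751 and 1265.4 (0.723) and at 360 and 454.7 (1.26, interval 1.10 to 1.45). The scarcer strand miR-365-2-5p was at 150.4 and 117.7 (0.783). miR-210-3p, a miRNA of the hypoxia response, was at 497.4 and 402.9 (0.810). The ratio farthest from 1 among the 14 was that of miR-122-5p, the main liver miRNA, at 72.2 in WT and 769.8 in KO, a ratio of 10.7 (8.37 to 13.8). The other entry at least 2-fold higher was miR-494-3p, at 30.1 and 110.7 (3.68). Among entries of the list with a mean of at least 100, the ratio of miR-378a-3p was above those of miR-208b-3p and miR-455-5p and below the rest.

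Markers of several cell types differed between the libraries along with the family. The smooth muscle miRNAs miR-143 and miR-145a were the most abundant of the marker lists, with a sum of 2080072 in WT and 1405953 in KO. Their summed ratio was 0.676, the ratios of their 4 strands ran from 0.259 to 0.694, and with equal totals the sum was at 0.816. miRNAs of striated muscle, in which miR-378a is also abundant, summed to 138727.5 in WT and 41065.5 in KO, a ratio of 0.296. Of the 5 such entries with a mean of at least 10, 4 were at least 2-fold lower as deposited and 2 with equal totals, against 9.94% and 5.34% of all entries, nearly all of the sum being miR-133a-3p, which is also known from smooth muscle (137240.9 and 40502.4). miR-1a-3p, a defining miRNA of striated muscle, was at 124.4 and 58.8, miR-208b-3p was at 992.8 and 301.2, miR-206 was not on the table, and miR-208a-3p was at 0 in WT and 1 in KO.

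Leukocyte miRNAs went the other way, from 1701.8 to 4936, a ratio of 2.90. Of 6 such entries with a mean of at least 10, 3 were at least 2-fold higher as deposited and 5 with equal totals, against 11.4% and 19.5% of all entries. None of the 6 had a ratio below 1, with ratios from 1.40 to 5.01. With miR-342, a leukocyte miRNA left off the list and added after its values were seen, the sums were 6085.2 and 10150.3, a ratio of 1.67, and 1 of 8 entries was below 1, miR-342-5p at 0.913. Red cell miRNAs went from 12745 to 47217.1, a ratio of 3.70, nearly all of it miR-486a-5p, which is also known from muscle (12591.6 and 46756.4). Of 4 red cell entries, 3 were at least 2-fold higher as deposited and 4 with equal totals, against 11.4% and 19.5% of all entries. Among these 4, miR-144-5p and miR-144-3p had low means, 14.5 and 11.45. Epithelial miRNAs went from 14645.4 to 18346.2, a ratio of 1.25, and most of that difference was miR-192-5p, at 4619.1 and 8271.5. Of 13 epithelial entries, 4 had a ratio below 1 as deposited and 0 with equal totals, against 47.9% and 34.1% of all entries. At least 2-fold higher were 2 of the 13 as deposited and 3 with equal totals, against 11.4% and 19.5% of all entries. The 2 were miR-200a-5p and miR-194-2-3p, with means of 11 and 11.5. None of the entries on the leukocyte, red cell, epithelial and smooth muscle lists was at 0 in either library. The part of the cell makeup in the lower miR-378 values was not tested, and in a bulk sample fewer cells of a type and less RNA per cell cannot be told apart.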

How the data were processed

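Small RNA of 2 jejunum smooth muscle libraries, extracted with a mirVana kit and prepared with Illumina TruSeq Small RNA, was sequenced, and a commercial provider aligned and annotated the reads. The submitters' processing notes name Bowtie and mm10, and the version is not given in the sources used here. The deposited score of each entry is a read count that the authors scaled by 1 factor per library, as found from the values (steps 1.002858 and 0.997209, implied reads 5725543 and 4767985). Of the values from 20 to 300, 88.6% in WT and 91.1% in KO were whole reads. A column of the authors' fold changes was not used. The table held 1147 entries, 1080 mature and 67 hairpin.

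KO/WT ratios were taken from the deposited values without a pseudocount. Exact (Clopper-Pearson), Wilson and log-normal 95% intervals were computed on implied reads with Python 3.11.15 and SciPy 1.17.1, and the interval code was tested on simulated data. Loci came from GENCODE M21 and sequences from RefSeq. Named were all members, metabolic entries with a mean of at least 100 (miR-494-3p, below that, was added after its values were seen), the 5 entries of nearest ratio, the level neighbours and miRNAs within 500 kb of *Mir378a*. Members and lists were chosen with earlier results of these data known. Alternatives were 3 scalings, a pseudocount of 10, other minimum means and other sums, with miR-342 added to the leukocyte list after seeing the data. No paired analysis or leave-one-out was possible because there was 1 library per genotype.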

Additional observations from a re-analysis of the deposited data

How the results depend on the processing

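The ratio of miR-378b, the scarcest member, was 0.447 as deposited, 0.540 with equal totals and 0.563 with a pseudocount of 10, which moved it most. For the other members the scalings moved the ratio more. With equal totals, with equal totals leaving out miR-143-3p, and with the median ratio of entries with a mean of at least 100 set to 1, the KO/WT ratio of miR-378a-3p was 0.653, 0.609 and 0.554, next to 0.541 as deposited. The summed family ratio was 0.676, 0.631 and 0.574, next to 0.560. Members at least 2-fold lower numbered 0, 0 and 2, next to 2 as deposited, and 1 with a pseudocount of 10. miR-378a-5p was above 1 with equal totals, at 1.06, and at 0.985 and 0.896 under the other scalings. Of 26 ratios under alternative settings, 25 were below 1. The background share of entries at least 2-fold lower, 9.94% as deposited, was 5.34% with equal totals and 6.08% with equal totals leaving out miR-143-3p. It was 9.21% with the median ratio set to 1, 6.81% with a pseudocount of 10 and 23.1% with no minimum mean. A scaling multiplies every KO value by 1 factor, so it moved all members together and left the shares within the family as they were. Without miR-378a-5p the share of miR-378a-3p in the family was 92.4% in WT and 90.0% in KO. Depth limits miR-378b, whose interval spanned 0.241 to 0.832. No paired analysis was possible because there was 1 library per genotype and no replicate numbers.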
